A study of Homo sapiens with 4 samples.

Results

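The RNAs described here are the expressed long intergenic and antisense noncoding RNAs of A549 cells, a human lung adenocarcinoma line, after transduction with a virus carrying FCN3. Of 25192 genes in the deposited tables, 707 carried a name that starts with LINC (266 genes) or ends in -AS and 1 digit (441 genes). Members were those with an expected count (the number of reads assigned to a gene by RSEM, which need not be whole) of at least 20 in each of the 4 libraries, with LINC00473 left out. This left 93 members, 23 named LINC and 70 named as antisense. Of the other candidates, 269 were at 0 in every library, 273 were under 20 in every library and 71 reached 20 in 1 to 3 libraries. Apart from the names, members were selected on these expected counts, so their presence is a description. Just inside the threshold were TMEM254-AS1 with a lowest count of 20 and MAGI2-AS3 and ZNRD1-AS1 with 21 each. Just outside were MCM3AP-AS1 at 19.83, THAP7-AS1 at 19.31 and LINC00472 at 19.

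Duplicate libraries of each of 2 groups were compared. The control cells received the empty virus (EV), a retrovirus that expresses GFP, and the other cells received the same virus with V5-tagged FCN3, which encodes the lectin ficolin-3. RNA was taken 48 h after infection. All 4 libraries come from this one line, nothing in the labels says that the duplicates were separate cultures, and p-values therefore measure only the spread between these samples. The libraries held 35733735 and 16353554 expected counts for EV replicates 1 and 2, and 35031565 and 20136068 for FCN3-virus replicates 1 and 2. FCN3 itself had 1 and 0 counts in the EV libraries and 722388 and 448352 in the FCN3-virus libraries. The epithelial keratins KRT7, KRT8 and KRT18 were at 1612 to 5237 in TPM (a level corrected for gene length and scaled to 1000000 in each library), and the leukocyte gene PTPRC and the endothelial gene VWF were at most 0.02 TPM. EPCAM and CDH1, further epithelial markers, were low at 1.09 to 3.65 and 3.35 to 9.53 TPM, and KRT19 was at 32.6 to 97.9 TPM. CD68, a macrophage gene that other cells also use, was at 33.9 and 35.7 TPM in EV and 61.9 and 49.8 TPM with FCN3 virus, and the fibroblast collagen gene COL1A1 was at 2.7 to 8.12 TPM. The part of other cell types in the results was not tested. In bulk RNA, fewer cells that express a gene and less RNA per cell cannot be told apart.

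A LINC name marks a gene between coding genes, and an -AS name marks a transcript from the strand opposite a named coding gene, often starting close to the coding gene's own promoter. Long noncoding RNAs of these classes act in several ways: some carry small nucleolar RNAs (snoRNAs) in their introns, some bind proteins or microRNAs, some affect the gene next to them, and a few turned out to encode short proteins. In RefSeq, 89 of the 93 members were matched, and 82 of these are annotated as long noncoding RNA. The 4 annotated as protein-coding are LINC00493 (now SMIM26), LINC00116 (MTLN), LINC00094 (BRD3OS) and LINC00085 (SPACA6). In all, 22 members now have another name, among them ZNFX1-AS1 (ZFAS1), C17orf76-AS1 (SNHG29), LINC00657 (NORAD), LINC00152 (CYTOR) and RSBN1L-AS1 (APTR). Of the 88 members that could be placed on GRCh37 with the GENCODE annotation, 40 lay head-to-head with a coding gene, with both starts within 1000 bp on opposite strands. A further 30 overlapped a coding gene on the other strand without this arrangement, and 18 did neither.

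The promoters of 4 members that start head-to-head with a coding gene are printed. The start of the coding gene lay 248 bp away for ZNFX1-AS1, 137 bp for SNAI3-AS1, 843 bp for TMPO-AS1 and 39 bp for PXN-AS1. A printed window therefore need not hold the coding gene's start, and that of TMPO-AS1 does not reach the start of TMPO. ZNFX1-AS1 and TMPO-AS1 had the largest increase and decrease, and SNAI3-AS1 and PXN-AS1 start close to MVD and RPLP0. Each run is 250 bases before to 50 after the start in RefSeq on GRCh38.p14, written 5′ to 3′ on the strand of the noncoding RNA, and capitals mark CCAAT in either direction (a box bound by the factor NF-Y):
ZNFX1-AS1, chr20:49278392-49278691, plus strand: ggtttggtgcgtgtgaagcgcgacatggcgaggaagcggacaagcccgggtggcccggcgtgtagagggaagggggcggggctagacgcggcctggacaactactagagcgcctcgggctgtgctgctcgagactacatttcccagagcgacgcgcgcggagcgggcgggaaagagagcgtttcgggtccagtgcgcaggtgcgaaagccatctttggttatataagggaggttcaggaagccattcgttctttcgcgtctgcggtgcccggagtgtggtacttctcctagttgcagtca
SNAI3-AS1, chr16:88663123-88663422, plus strand: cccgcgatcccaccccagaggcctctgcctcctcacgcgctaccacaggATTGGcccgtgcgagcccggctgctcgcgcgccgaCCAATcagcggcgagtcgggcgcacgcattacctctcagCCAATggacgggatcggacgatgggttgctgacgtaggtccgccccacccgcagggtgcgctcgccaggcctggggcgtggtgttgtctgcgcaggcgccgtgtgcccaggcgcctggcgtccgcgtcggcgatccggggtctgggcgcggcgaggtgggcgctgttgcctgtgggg
TMPO-AS1, chr12:98516177-98516476, minus strand: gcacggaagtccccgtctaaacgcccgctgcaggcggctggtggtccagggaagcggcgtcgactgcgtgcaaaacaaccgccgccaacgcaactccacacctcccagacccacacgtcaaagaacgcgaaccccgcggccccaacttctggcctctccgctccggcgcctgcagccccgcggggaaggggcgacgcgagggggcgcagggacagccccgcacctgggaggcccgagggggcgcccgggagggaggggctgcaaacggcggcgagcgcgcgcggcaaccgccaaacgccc
PXN-AS1, chr12:120201041-120201340, plus strand: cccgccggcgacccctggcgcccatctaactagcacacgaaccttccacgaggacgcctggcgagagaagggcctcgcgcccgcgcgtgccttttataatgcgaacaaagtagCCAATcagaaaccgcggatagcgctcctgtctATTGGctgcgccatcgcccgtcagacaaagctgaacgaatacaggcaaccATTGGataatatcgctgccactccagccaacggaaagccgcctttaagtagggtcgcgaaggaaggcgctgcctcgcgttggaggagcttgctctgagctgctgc
CCAAT stood 3 times in the SNAI3-AS1 promoter, 3 times in that of PXN-AS1, and was not in the windows of ZNFX1-AS1 and TMPO-AS1. Over the 75 members with a promoter in the table, 33.3% held CCAAT, against 35.7% of all 27305 promoters. It was present in 6 of 11 promoters of members that rose and 6 of 12 of those that fell. The E-box CACGTG was in 9.33% of member promoters and 7.43% of all. TGACGTGG, a sequence bound by the stress factors XBP1 and ATF6, was in 3 of the 75 (4.0%, against 0.795% of all), none of them a member that rose or fell. Both strands were searched, and a match describes the sequence only.

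NORAD, listed as LINC00657, is known to bind PUMILIO proteins, which shorten the life of messenger RNAs that carry their motif. The motif TGTANATA (N is any base) occurred 15 times in its longest transcript in GENCODE (5401 bases, sense strand), or 2.78 per 1000 bases. The next highest number in any of the 88 members searched was 2, and 68 members had none. The first 4 elements are shown as 30-base stretches of the GENCODE transcript, with the motif in capitals and positions counted from the transcript's 5′ end:
Element at bases 819 to 826: tggaaggcctgTGTATATAatatgaaaaag
Element at bases 1198 to 1205: cctcactactgTGTATATAgttgacaatgc
Element at bases 1299 to 1306: aaatcacatttTGTAAATAcctttttgtta
Element at bases 1500 to 1507: ttacttatctgTGTATATAgtgtacataaa

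Levels of the members differed widely. Mean TPM over the 4 libraries ran from 0.562 to 1012 with a median of 4.32, and 22 members reached 10 TPM while 9 stayed under 1. The 5 most abundant were C17orf76-AS1 (mean 1012 TPM), ZNFX1-AS1 (280 TPM), LINC00152 (157 TPM), LINC00493 (115 TPM) and LINC00657 (92.6 TPM), and together they made up 70.7% of the members' TPM. All members together held 2092 and 2077 TPM in the EV libraries and 2607 and 2594 TPM in the FCN3-virus libraries. Without C17orf76-AS1 and ZNFX1-AS1 the sums were 1057 and 1076 TPM in EV and 1009 and 1061 TPM in FCN3-virus-transduced cells, and these ranges overlap. The pair of snoRNA host genes took 49.5% and 48.2% of member TPM in EV and 61.3% and 59.1% with FCN3 virus.

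FCN3-virus-transduced cells were compared with EV cells by edgeR's quasi-likelihood test with the replicate number as a block, at a Benjamini-Hochberg false discovery rate of 0.01 over all 14099 genes tested. On this test 25 of the 93 members changed, 12 up and 13 down. The share was 26.9%, below the 36.2% of all tested genes that changed (19.1% up and 17.1% down). The count rested on the block: without it, no member passed, 13 had an unadjusted p under 0.05, the smallest adjusted p in edgeR was 0.012 (ZNFX1-AS1), and 0.965% of all genes passed. DESeq2 called 8 members with the block (16.2% of all genes) and 4 without it (7.86% of all genes), and all of these were among the 25. The 4 called by DESeq2 with and without the block were C17orf76-AS1, THAP9-AS1, TMPO-AS1 and ZNFX1-AS1. On the log2(TPM + 1) scale 24 members passed, but split as 7 up and 17 down. The median log2 fold change of all genes was also lower on that scale, at -0.072 against 0.01 in the main fit. FCN3 itself held 41618 and 44730 TPM in the FCN3-virus libraries and 0.06 and 0 TPM in EV. Its part in the split was not tested.

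Changes were small for most members. The median log2 fold change (FCN3 virus minus EV) was 0.05 over the members and 0.01 over all genes, with 48 members positive and 45 negative, and 72 members lay within 0.5 of 0. Called members with a fold change of at least 2 numbered 3 (ZNFX1-AS1, SNAI3-AS1 and TMPO-AS1), against 4.89% of all genes. The share called moved with level. At an average log2 CPM (read counts per 1000000, scaled by library) under 2, 6 of 44 members were called (13.6%, all genes 16.1%). Between 2 and 4 it was 9 of 33 (27.3%, all genes 31.5%), and at 4 or more 10 of 16 (62.5%, all genes 45.0%). The median standard error of the log2 fold change was 0.11 for called members and 0.19 for the others, whose median count was 82.5 against 326 for the called.

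**Figure D1:**
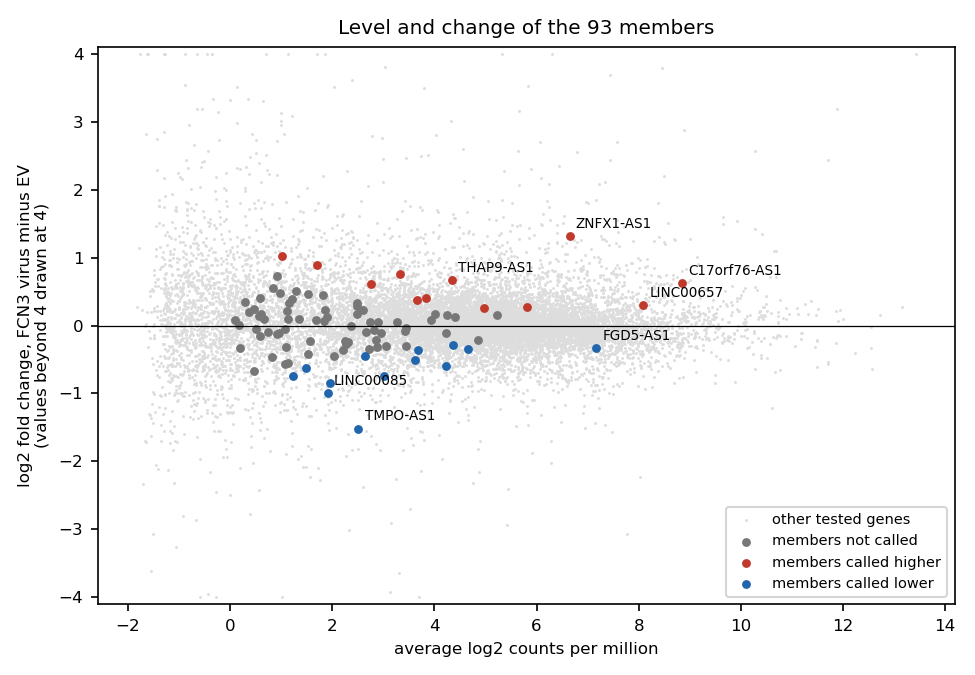
Log2 fold change (FCN3 virus minus EV, vertical axis) against average log2 CPM (horizontal axis) for the 93 members over all other tested genes in grey. Of the members, 12 called higher (red) and 13 called lower (blue) stand among 68 that were not called, and ZNFX1-AS1 and TMPO-AS1 lie farthest from 0.

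Some members that rose are host genes of small RNAs. ZNFX1-AS1 (chr20:47894715-47916137 on GRCh37, plus strand), which carries SNORD12C, SNORD12B and SNORD12 in its introns, had 64.5 and 50.7 CPM in EV and 152 and 133 CPM in FCN3-virus-transduced cells. It rose by 1.31 ± 0.06 on the log2 scale (SE, n = 2 per group, edgeR adjusted p = 1.6e-25). C17orf76-AS1 (chr17:16342081-16383563, plus strand), the snoRNA host gene SNHG29, had 365 and 364 CPM in EV and 559 and 563 CPM with FCN3 virus. Its replicates lay within 5 CPM of each other in both groups, far less than the difference between groups, and its log2 fold change was 0.62 ± 0.05 (SE, edgeR adjusted p = 7.9e-16). EPB41L4A-AS1 (chr5:111496223-111500515, plus strand), which holds SNORA13, went from 7.44 and 7.23 CPM to 11.7 and 13.5 CPM, a log2 fold change of 0.76 ± 0.12 (SE, edgeR adjusted p = 6e-07). In all 3 genes both FCN3-virus libraries lay above both EV libraries. LINC00152 (chr2:87754300-87936259, plus strand), which holds MIR4435-1 by annotation, had 29.9 and 27.0 CPM in EV and 35.1 and 33.0 CPM with FCN3 virus. That difference was small, 0.26 ± 0.08 on the log2 scale (SE, edgeR adjusted p = 0.0043), and it is uncertain because this RNA has a near-identical copy, MIR4435-2HG, with which its reads can be shared.

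GENCODE tags 11 members as hosts of noncoding RNA, of which 5 rose, 1 fell and 5 did not pass (all genes 19.1% up and 17.1% down), with a median log2 fold change of 0.26 against 0.01 over all genes. By position, only 5 members held an annotated small RNA on their strand, and C17orf76-AS1 was not among these. The tagged hosts include the most abundant members, C17orf76-AS1, ZNFX1-AS1 and LINC00152, and at an average log2 CPM of 4 or more 45.0% of all genes were called. DESeq2 with the block called 3 of the 5 that rose, namely ZNFX1-AS1, C17orf76-AS1 and EPB41L4A-AS1. C1RL-AS1 was the fifth that rose, from 8.07 and 13.8 CPM to 10.1 and 18.6 CPM, with overlapping groups. The host that fell was LINC00085 (chr19:52191599-52215640, plus strand), now SPACA6, whose span holds MIR99B, MIRLET7E and MIR125A. It had 2.77 and 7.29 CPM in EV and 1.3 and 3.82 CPM with FCN3 virus, and it fell by 1.00 ± 0.19 on the log2 scale (SE, edgeR adjusted p = 1.9e-05). Here the groups overlapped, since replicate 2 of each group was far above replicate 1. The snoRNAs and microRNAs themselves were not analysed here, as the libraries were made from messenger RNA.

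**Figure D2:**
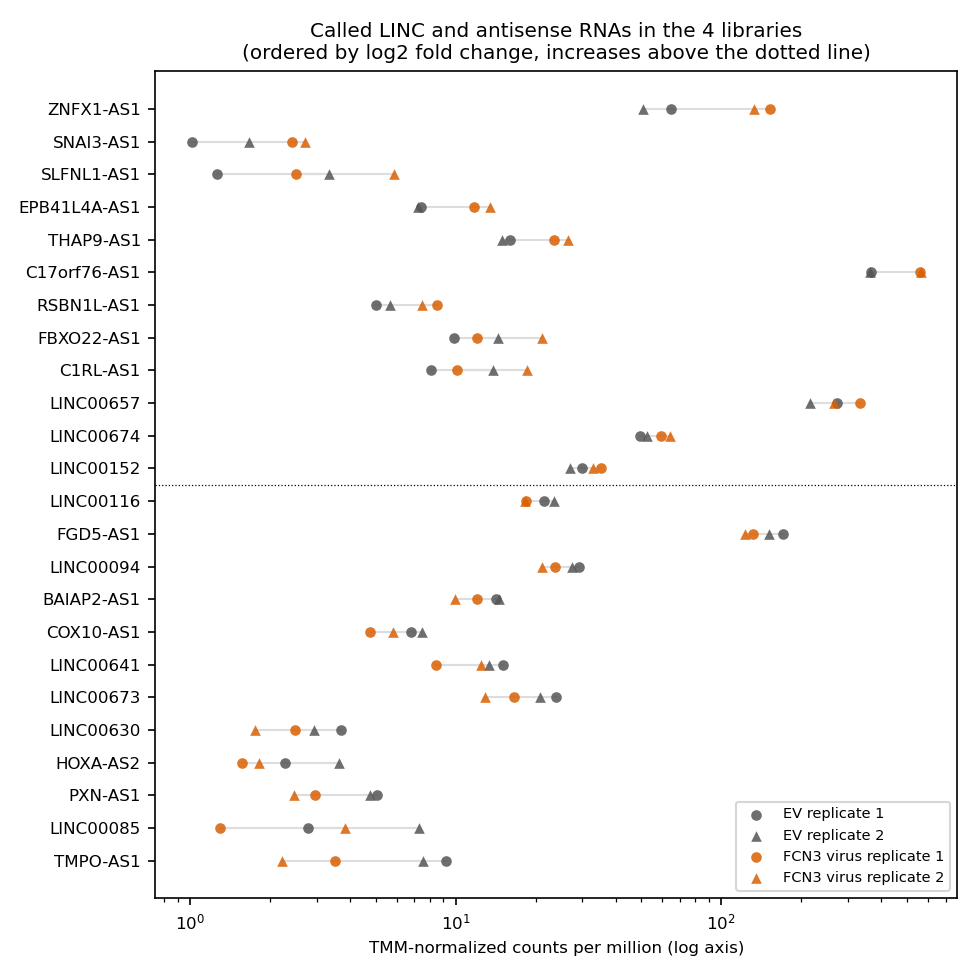
TMM-normalized CPM in each library (log axis) for 24 of the called members, with EV in grey, FCN3 virus in orange, replicate 1 as circles and replicate 2 as triangles. For 19 of the 24 the 2 groups do not overlap, and those of SLFNL1-AS1, FBXO22-AS1, C1RL-AS1, LINC00657 and LINC00085 overlap.

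Other members rose by less or at lower levels. SNAI3-AS1 (chr16:88729706-88753690, plus strand) went from 1.02 and 1.67 CPM to 2.42 and 2.71 CPM, a log2 fold change of 1.02 ± 0.25 (SE, edgeR adjusted p = 0.00064). It had 28 to 82 counts a library, among the lowest behind any called member. THAP9-AS1 (chr4:83814162-83822113, minus strand) had 16 and 15 CPM in EV and 23.4 and 26.5 CPM with FCN3 virus, a log2 fold change of 0.67 ± 0.09 (SE, edgeR adjusted p = 1.9e-08). RSBN1L-AS1 (chr7:77286976-77325607, minus strand) is APTR, an RNA known to repress the cell cycle inhibitor gene CDKN1A. It rose from 5.02 and 5.67 CPM to 8.49 and 7.49 CPM, a log2 fold change of 0.62 ± 0.14 (SE, edgeR adjusted p = 0.0003). LINC00674 (chr17:66098049-66110668, plus strand) had 49.7 and 52.6 CPM in EV and 59.4 and 64.2 CPM with FCN3 virus, a log2 fold change of 0.27. These 4 kept the groups apart. NORAD (LINC00657, chr20:34633540-34638940, minus strand) had 273 and 217 CPM in EV and 334 and 267 CPM with FCN3 virus. It rose by a similar amount in both pairs, 0.29 and 0.30 on the log2 scale, while EV replicate 1 stayed above FCN3-virus replicate 2 (log2 fold change 0.30 ± 0.05, SE, edgeR adjusted p = 2.2e-06). SLFNL1-AS1 and FBXO22-AS1 also rose with overlapping groups, by 0.89 and 0.41 on the log2 scale.

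TMPO-AS1 (chr12:98906751-98910200, minus strand) fell the most of the 93. It had 9.19 and 7.53 CPM in EV and 3.51 and 2.21 CPM in FCN3-virus-transduced cells, and it fell by 1.52 ± 0.16 on the log2 scale (SE, n = 2 per group, edgeR adjusted p = 1.2e-11). PXN-AS1 (chr12:120639077-120651036, plus strand) fell from 5.08 and 4.78 CPM to 2.95 and 2.46 CPM, a log2 fold change of -0.85 ± 0.18 (SE, edgeR adjusted p = 9.2e-05). Both start head-to-head with a coding gene. HOXA-AS2 (chr7:27147396-27173921, plus strand), a transcript of the HOXA cluster, had 2.28 and 3.64 CPM in EV and 1.56 and 1.81 CPM with FCN3 virus (log2 fold change -0.74 ± 0.23, SE, edgeR adjusted p = 0.006). LINC00673 fell from 24.0 and 20.8 CPM to 16.6 and 12.9 CPM, by 0.60 ± 0.09 on the log2 scale (SE, edgeR adjusted p = 3.3e-07). LINC00630 (chrX:102024086-102140334, plus strand) had 3.70 and 2.93 CPM in EV and 2.48 and 1.76 CPM with FCN3 virus. The groups did not overlap for any of these members.

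The other called members fell by less. FGD5-AS1 (chr3:14961854-14989931, minus strand), among the most abundant antisense RNAs here, had 171 and 151 CPM in EV and 132 and 122 CPM with FCN3 virus (log2 fold change -0.34 ± 0.05, SE, edgeR adjusted p = 6.3e-07). LINC00094, now BRD3OS, fell from 29.1 and 27.5 CPM to 23.6 and 21.1 CPM. BAIAP2-AS1 fell from 14.1 and 14.6 CPM to 12.1 and 9.90 CPM, and COX10-AS1 from 6.78 and 7.47 CPM to 4.75 and 5.83 CPM. LINC00641 (chr14:21668238-21675059, minus strand) had 15.1 and 13.3 CPM in EV and 8.43 and 12.4 CPM with FCN3 virus. Its decrease was -0.84 in the first pair and -0.10 in the second, the least even of the called members. LINC00116, now MTLN, encodes mitoregulin, a short protein of the inner mitochondrial membrane. It had 21.6 and 23.4 CPM in EV and 18.5 and 18.2 CPM with FCN3 virus, and it fell by 0.29 ± 0.09 on the log2 scale (SE, edgeR adjusted p = 0.0062).

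The direction was the same in both replicate pairs for 72 of the 93 members (77.4%, against 80.3% of all genes) and for 25 of the 25 called. The test with the block favours genes whose replicate pairs agree, so the count among called members is no separate support. Groups did not overlap for 45 members (22 higher and 23 lower), which is 48.4% against 54.5% of all tested genes (28.0% higher and 26.5% lower). Of these, 20 were called.

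**Figure D3:**
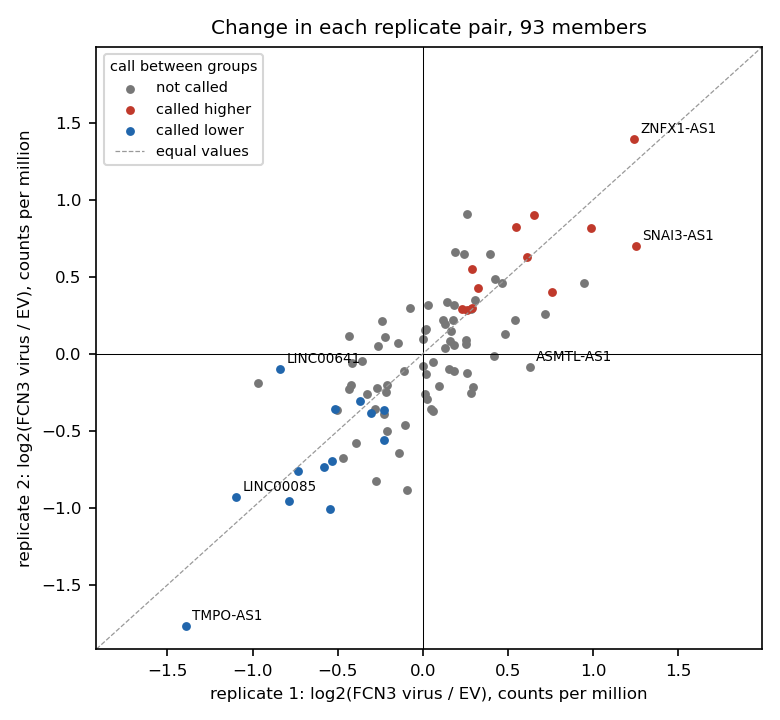
Log2 ratio of FCN3 virus to EV in CPM for replicate 2 (vertical axis) against replicate 1 (horizontal axis), 1 point for each of the 93 members. The called members lie in the quadrants of equal sign, with ZNFX1-AS1 at 1.24 and 1.39 and TMPO-AS1 at -1.39 and -1.77, while LINC00641 is uneven at -0.84 and -0.10.

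A pair of gene lists was set down by function, with earlier results known. On the list of 8 LINC genes now known to encode short proteins, 2 were members. LINC00116 fell, as given above, and LINC00493 (SMIM26) had 20.4 and 20.3 CPM in EV and 23.2 and 21.1 CPM with FCN3 virus (log2 fold change 0.13, edgeR adjusted p = 0.23). The list of 27 noncoding RNAs with a described role in cancer cells or gene control held 9 members. LINC00152 and LINC00657 rose, HOXA-AS2 and TMPO-AS1 fell, and 5 did not pass (all genes called 36.2%). On the log2(TPM + 1) scale, where the median of all genes was -0.072, 0 rose and 3 fell. OIP5-AS1, also called cyrano, had 32.5 and 29.0 CPM in EV and 28.2 and 25.2 CPM with FCN3 virus (log2 fold change -0.21, edgeR adjusted p = 0.026). FOXD2-AS1 had 1.92 and 3.05 CPM in EV and 1.39 and 1.91 CPM with FCN3 virus (log2 fold change -0.56, edgeR adjusted p = 0.048). For ZEB1-AS1, beside the gene of an epithelial-mesenchymal transition factor, the log2 fold change was 0.09. It was -0.21 for GABPB1-AS1 and -0.23 for LINC00261, and the groups of all 3 overlapped. Of the rest of this list, 13 were in the tables without being members, and LINC-ROR and NKX2-1-AS1 were at 0 in every library. CDKN2B-AS1 had at most 1 count in a library, and CDKN2A and CDKN2B beside it were at most 0.22 and 0.02 TPM.

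An antisense name points to a partner gene. Of the 70 antisense members, 67 had their partner in the tables, and 61 of these partners were expressed enough to be tested. The antisense RNA was the lower of the 2 in TPM in 44 of 61 pairs, with a median partner level 3.99 times that of the antisense RNA. Among the partners, 13 rose and 9 fell (36.1%, the share of all genes being 36.2%), while without the block none passed in edgeR (18 at an unadjusted p under 0.05) and 4 did in DESeq2. On the log2(TPM + 1) scale, where the median of all genes was -0.072, the balance turned, with 3 partners up and 12 down. Both genes of a pair were called in 5 cases, in 4 of them in the same direction. ZNFX1, a helicase gene, rose with ZNFX1-AS1, by 0.34 against 1.31 on the log2 scale. FBXO22, an F-box protein gene, rose by 0.20 beside 0.41 for its antisense RNA. Reads were divided between these genes, as given below, and the part of this in their shared direction was not tested. TMPO, which encodes the nuclear lamina protein LAP2, had 358 and 274 CPM in EV and 232 and 187 CPM with FCN3 virus, and it fell by 0.59 beside 1.52 for TMPO-AS1. TMPO-AS1 and TMPO also had counts that were not whole. In 1 pair the genes moved apart: PXN, the gene of the focal adhesion protein paxillin, rose from 252 and 253 CPM to 353 and 321 CPM while PXN-AS1 fell. Reads were divided between PXN and PXN-AS1 as well.

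Another 7 antisense RNAs were called where the partner was not. THAP9-AS1 rose by 0.67 with THAP9 at 0.05 (edgeR adjusted p = 0.83), and EPB41L4A-AS1 by 0.76 with EPB41L4A at 0.13 (edgeR adjusted p = 0.46). RSBN1L-AS1 rose by 0.62 with RSBN1L at 0.05 (edgeR adjusted p = 0.7). Reads were divided between THAP9-AS1 and THAP9 and between RSBN1L-AS1 and RSBN1L, as given below. The levels within these pairs are therefore not separate measurements. Not every uncalled partner was near 0. SLFNL1, with 7.14 to 23.62 counts a library, stood at 1.304 (edgeR adjusted p = 0.018) beside 0.89 for SLFNL1-AS1. Other partners had the opposite sign to their antisense RNA. BAIAP2 was at 0.18 (edgeR adjusted p = 0.024) beside -0.37, C1RL at -0.20 beside 0.37, and COX10 at 0.14 beside -0.45. Whether the change of an antisense RNA differed from that of its partner was not tested. OIP5-AS1 was among the pairs with the opposite arrangement, where the partner was called and the antisense RNA was not. Of the 22 partners called, only 5 had a called antisense RNA. OIP5, a centromere protein gene, fell from 15.8 and 14.9 CPM to 8.17 and 7.64 CPM (log2 fold change -0.95, edgeR adjusted p = 3.8e-10) while OIP5-AS1 stood at -0.21. Across the 61 pairs, which share libraries, Pearson's r of the log2 fold changes was 0.337 and Spearman's rho 0.204, and r was 0.249 over the 59 pairs without ZNFX1-AS1 and TMPO-AS1.

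**Figure D4:**
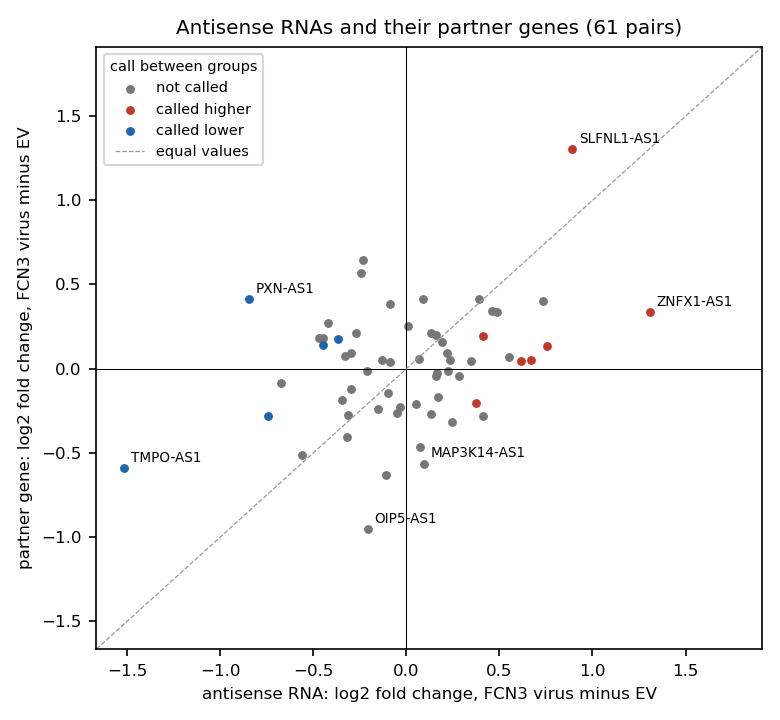
Log2 fold change of the partner gene (vertical axis) against that of the antisense RNA (horizontal axis), FCN3 virus minus EV, for 61 pairs coloured by the call of the antisense RNA. TMPO-AS1 lies below 0 on both axes, ZNFX1-AS1 above 0 on both, and PXN-AS1 stands at -0.85 with its partner at 0.41.

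RSEM divides a read that could belong to several genes, which leaves counts that are not whole, and 36 members had such counts in some library while 57 had whole counts in all (within 0.005). Of the called members, 11 were in the first set and 14 in the second. TMPO-AS1, THAP9-AS1, PXN-AS1 and FBXO22-AS1 had divided counts, and ZNFX1-AS1 and OIP5-AS1 did not. For THAP9-AS1, RSBN1L-AS1, PXN-AS1 and FBXO22-AS1, the count and that of the partner added to a whole number in every library. In EV replicate 1, THAP9-AS1 had 582.87 counts and THAP9 153.13, and PXN-AS1 had 185.17 and PXN 9193.83. Reads were therefore divided between the antisense RNA and its partner in these pairs. Pearson's r between antisense RNA and partner was 0.422 over the 29 pairs whose antisense RNA had divided counts, among them the pairs that divided reads with each other. It was 0.229 over the 32 pairs with whole counts, and this difference was not tested. The library kit keeps the strand, but the strand setting of the counting is not given in the sources used here. Reads of THAP9-AS1, RSBN1L-AS1, PXN-AS1 and FBXO22-AS1 were not fully separated from those of their partners. Whether reads of the other overlapping pairs were fully separated was not tested.

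Of the 40 head-to-head members, 4 rose and 6 fell (all genes 19.1% up and 17.1% down), with a median log2 fold change of -0.10. Of the 30 overlapping members 4 rose and 2 fell (median 0.09), and of the 18 others 3 rose and 4 fell (median -0.03). The coding gene that shares the start region is not always the one in the name. For 36 head-to-head members it was tested, and it was called in 15 (10 higher and 5 lower), a share near the 36.2% of all genes. SNAI3-AS1 starts 137 bp from MVD, which encodes mevalonate diphosphate decarboxylase of the cholesterol pathway, while SNAI3 itself averaged 0.125 TPM and was not tested. MVD had 22.4 and 28.5 CPM in EV and 51.9 and 51.6 CPM with FCN3 virus, a log2 fold change of 1.04 ± 0.08 (SE, edgeR adjusted p = 5.5e-17) beside 1.02 for SNAI3-AS1. PXN-AS1 starts 39 bp from RPLP0, a ribosomal protein gene with a mean of 4097 TPM, which rose by 0.31 while PXN-AS1 fell. COX10-AS1 and COX10 start 5 bp apart, and COX10 had a log2 fold change of 0.14 (edgeR adjusted p = 0.13) beside -0.45. FGD5-AS1 starts 841 bp from NR2C2, which had a log2 fold change of 0.02, and FGD5 was at 0 counts in every library. In the 5 head-to-head pairs with both genes called, 4 moved the same way (among them ZNFX1-AS1, SNAI3-AS1 and TMPO-AS1) and PXN-AS1 did not.

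The replicates differed from each other for many members. In the same fit 20 of 93 members differed between replicate numbers (21.5%, all genes 22.2%), 16 higher in replicate 2 (all genes 11.7%) and 4 higher in replicate 1 (all genes 10.5%). The median difference, replicate 2 minus replicate 1, was 0.19 on the log2 scale for members and -0.01 for all genes, and 67 of 93 members were positive. The largest were LINC00085 at 1.45, ASMTL-AS1 at 1.42 and SLFNL1-AS1 at 1.29. ASMTL-AS1 had 1.56 and 5.50 CPM in EV and 2.42 and 5.18 CPM with FCN3 virus, so the difference between replicate numbers was larger than that between groups. LINC00467 (-0.66), SBF2-AS1 (-0.54) and TMPO-AS1 (-0.41) had the largest differences in the other direction. Replicate 2 was the shallower library in both groups, and what the replicate number stands for was not given in the labels. Both tests were passed by 6 members, namely ZNFX1-AS1, SLFNL1-AS1, FBXO22-AS1, C1RL-AS1, LINC00657 and LINC00085.

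**Figure D5:**
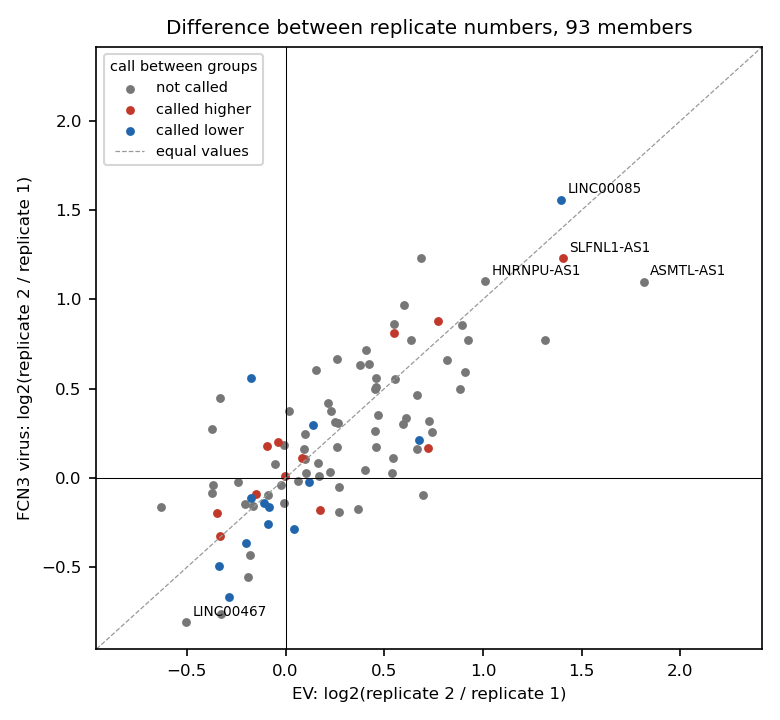
Log2 ratio of replicate 2 to replicate 1 in CPM in FCN3-virus libraries (vertical axis) against EV libraries (horizontal axis), 1 point for each of the 93 members. Points follow the line of equal values (Pearson's r 0.762 across members), and LINC00085, SLFNL1-AS1 and ASMTL-AS1 are over 1 on both axes.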

How the data were processed

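RNA-seq libraries of EV and FCN3-virus A549 cells (2 each) were analysed, grouped by the sample labels. The authors trimmed reads with Fastx_toolkit, aligned them to hg19 with STAR 2.6.1d and estimated abundance with RSEM. They deposited expected counts per gene, not normalized, and TPM, normalized by RSEM for length and depth; deposited FPKM was not used. The gene annotation and strand setting of the counting are not given in the sources used here.

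Expected counts were rounded and fitted in R 4.3.3 with edgeR 4.0.16 (TMM, filterByExpr, quasi-likelihood, replicate block, Benjamini-Hochberg adjustment over 14099 genes, threshold 0.01). The block left 1 residual degree of freedom per gene and its absence 2. The replicate numbers come from the labels; replicate differences in EV and FCN3-virus libraries correlated at r = 0.807 over 8309 genes with log2 CPM above 4. The study's methods name DESeq2 at the same threshold and mention no block, so values without the block are given too. Each standard error (SE) was derived from the fold change and its F statistic. Scripts were tested on simulated data.

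Members and lists were chosen with earlier results of these data known. Members named were called members with separate groups, the 5 most abundant, those on 2 lists, those at the threshold of 20, the partners of called members, and the 3 most different between replicates in each direction. C1RL-AS1 and FBXO22-AS1, members of small counts of genes, and the coding genes at shared start regions were named after their values were seen. Alternatives were DESeq2 1.42.0, limma 3.58.1 on voom weights and on log2(TPM + 1) and log2(TPM + 0.1), RLE factors, other filters and thresholds, no block, and each library left out. Positions come from GENCODE on GRCh37, and names and promoters from RefSeq on GRCh38.p14. The values of 1 called member and 1 other called candidate are not reported here; both are in the counts.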

Additional observations from a re-analysis of the deposited data

How the results depend on the processing

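The count of 25 called members rested on the replicate block. It was 0 without the block, 8 in DESeq2 with it and 4 in DESeq2 without it, and 3 when a fold change of at least 2 was also asked. With 1 library left out and no block it was between 0 and 1, being 0 without FCN3-virus replicate 1 and 1 without each of the others. The other settings gave 18 (no filter on low counts, or a member minimum of 50 counts) to 33 (threshold 0.05), and 24 on both TPM scales. Partners called numbered 22 in the main fit, 0 without the block, 10 in DESeq2 with the block, 4 in DESeq2 without it, 0 at a fold change of at least 2, and from 0 to 0 with 1 library left out. Of the short-protein list, 1 member was called, and 0 without the block, without the filter, in both DESeq2 fits, at the fold change of 2, and from 0 to 0 with a library left out. Of the role list, 4 were called, and 0 without the block, 2 without the filter, 2 in DESeq2 with the block, 1 without it, 1 at the fold change of 2, and from 0 to 0 with a library left out. Members differing between replicate numbers were 20, 13 without the filter, 12 on log2(TPM + 0.1) and 5 at a fold change of 2. These last 3 lists of settings were chosen after seeing the data. The cause of these differences was not tested.

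The median log2 fold change of the members, 0.05, became -0.0738 on log2(TPM + 1) and -0.0872 on log2(TPM + 0.1), where the median of all genes shifted by -0.0867 and -0.1019. It was -0.1201 without EV replicate 1, -0.0844 without FCN3-virus replicate 2, 0.1295 without FCN3-virus replicate 1 and 0.1413 without EV replicate 2. Of 35 named members, those that changed sign had not been called. ZEB1-AS1 gave -0.046 on log2(TPM + 1), -0.0608 on log2(TPM + 0.1) and -0.22 without EV replicate 1. GABPB1-AS1 gave 0.16 without FCN3-virus replicate 1. MAGI2-AS3 gave -0.0089 and -0.0101 in DESeq2 with and without the block, and -0.26 and -0.13 without EV replicate 1 and FCN3-virus replicate 2. Without those same libraries LINC00467 gave 0.32 and 0.29, SBF2-AS1 0.11 and 0.19, and ASMTL-AS1 -0.62 and -0.39. LINC00467 also gave 0.0021 without the filter, 0.0027 with 10 counts in every library and 0.0165 in voom. Members with few counts had standard errors that could hide changes of the size seen in abundant ones.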

Other observations

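Of the 71 candidates that reached 20 counts in 1 to 3 libraries, 68 were tested and 7 were called at the same threshold of 0.01 in edgeR with the block, against 36.2% of all genes and 16.1% of genes with an average log2 CPM under 2. These 7 were chosen after their values were seen, and a gene high in 1 group only could enter this set through that group. LINC00173 had 23 and 26 expected counts in EV and 3 and 4 with FCN3 virus. RHPN1-AS1 had 61 and 14 against 13 and 6, and UCKL1-AS1 had 60.4 and 46.7 against 23.9 and 14.5. LINC00602 had 24.0 and 18.5 in EV and 5.93 and 0 with FCN3 virus. Among those higher with FCN3 virus were UGDH-AS1, with 35 and 9 against 55 and 33, and MATN1-AS1, with 12.5 and 18.6 against 37.4 and 39.8. These counts are not scaled for library depth. In CPM, MATN1-AS1 had 0.33 and 1.135 in EV and 1.09 and 2.01 with FCN3 virus, so its groups overlapped. None of the 7 was above 61 counts in any library. Without the replicate block, adjusted p in edgeR was between 0.087 and 0.29 for these 7.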
